A study of Homo sapiens with 9 samples.

Results

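The 10 genes NEFL, NEFM, NEFH, INA, STMN1, STMN2, NES, VIM, GAP43 and UCHL1 were described in HEK293, a human embryonic kidney line. They were taken by symbol from a table of 35876 gene symbols, in which all 10 had a row. The rule uses no measured value, but the list was drawn up with earlier results of these data known. The table held 9 libraries in 3 groups of 3. The Cas9 group had the genotype CC_Cas9, the Cre group CC_Cas9_Cre and the Flpo group CC_Cas9_Flpo, so that CC and Cas9, an RNA-guided nuclease, were common to every library. Cre and Flpo are recombinases that act on short target sites in DNA. The labels do not explain CC, name no promoter for any construct and do not say whether a group is 1 clone or whether replicates are separate cultures. The p-values therefore measure the spread between these libraries, which may be technical.

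Neurofilaments are intermediate filaments of axons, built from a light (NEFL), a medium (NEFM) and a heavy (NEFH) chain together with alpha-internexin (INA). Developing neural cells use other filament proteins first: vimentin (VIM), which mesenchymal and many cultured cells also make, and nestin (NES), a marker of neural stem and progenitor cells. STMN1 and STMN2 encode stathmins, which bind tubulin and promote microtubule disassembly. STMN1 is made by most dividing cells and STMN2 mainly by neurons. GAP43 is a growth cone protein, and UCHL1 is a ubiquitin hydrolase abundant in neurons and neuroendocrine cells. HEK293 was made by transforming embryonic kidney cultures with adenovirus DNA, and the presence of neurofilament and other neuronal proteins in the line has raised the question of which kidney culture cell gave rise to it.

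Total estimated counts ran from 993902 to 3761779 in the Cas9 libraries, from 213907 to 1701730 in the Cre libraries and from 4989524 to 8833491 in the Flpo libraries, so every Flpo library was deeper than every Cas9 and every Cre library. Depth cannot be told apart from group in either comparison with Flpo. Levels are given as CPM, counts scaled to a common library total, after TMM scaling, which corrects for differences in composition between libraries. The TMM factors lay between 0.663 and 1.32. A count of 3, used here as the floor of detection, was 0.479 CPM in Flpo replicate 3 and 11.2 CPM in Cre replicate 2, the smallest library. Differences were tested with edgeR's quasi-likelihood test over 11905 genes, with Benjamini-Hochberg adjustment over all of them. In bulk RNA, fewer cells of a type and less RNA per cell cannot be told apart.

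The 10 genes fell into 3 tiers of level in these cells. STMN1, VIM and UCHL1 were abundant, NEFL, NES and GAP43 were present at a low level, and STMN2, NEFM, INA and NEFH were close to or below the floor. Per kilobase of transcript, STMN1 averaged 261 CPM ± 223 (SD, n = 9 libraries), VIM 191 ± 107 and UCHL1 176 ± 167. These means were above those of 98.2%, 97.6% and 97.4% of the 11873 tested genes with a known length. NEFL averaged 5.74 CPM per kilobase ± 3.37, NES 5.18 ± 4.59 and GAP43 4.69 ± 2.80 (SD, n = 9), above 41.2%, 38.1% and 35.1% of tested genes. STMN2 averaged 0.543 CPM per kilobase ± 0.621, NEFM 0.348 ± 0.317, INA 0.229 ± 0.343 and NEFH 0.0345 ± 0.0772 (SD, n = 9).

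**Figure D1:**
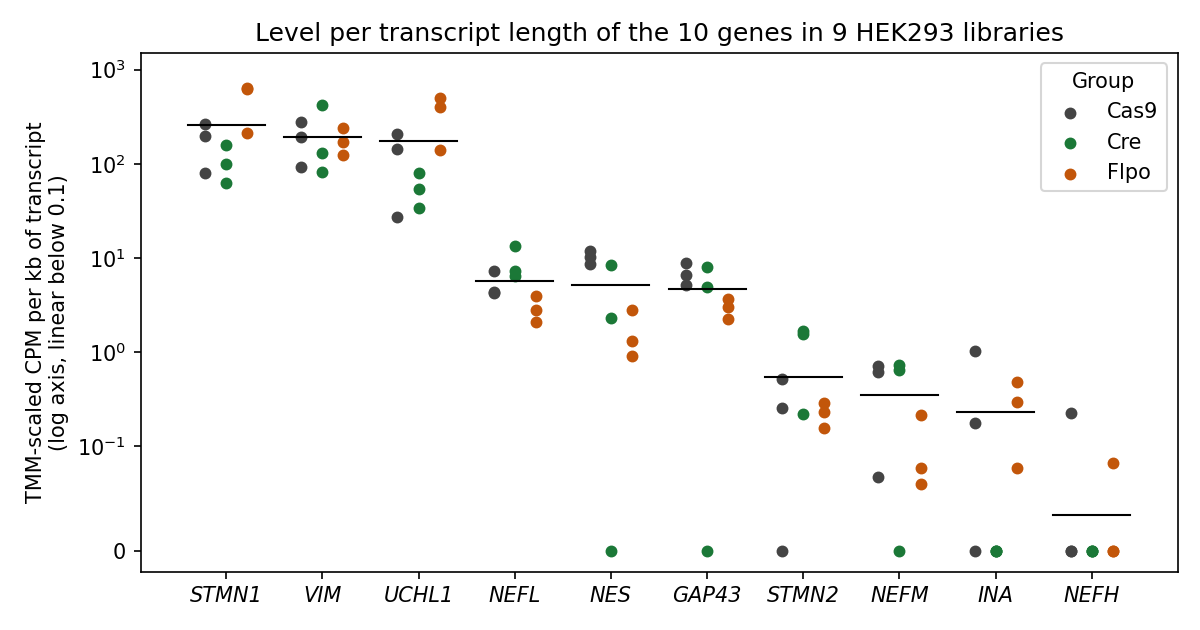
Level of each of the 10 genes per kilobase of transcript (TMM-scaled CPM per kilobase, log axis, linear below 0.1) in 9 libraries, 1 point per library, coloured by group, with the mean over all 9 as a line. STMN1, VIM and UCHL1 stand apart from the other 7 genes, and the points at 0 are libraries without a count.

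Only 1 step in this order separated neighbours in every library. UCHL1 exceeded NEFL, per kilobase, in 9 of 9 libraries, by 30.7-fold in the means, and their ranges did not overlap. Within the abundant tier the order was not stable: STMN1 exceeded VIM in 5 of 9 libraries and VIM exceeded UCHL1 in 6 of 9. Within the low tier, NEFL exceeded NES in 4 of 9 libraries and NES exceeded GAP43 in 4. GAP43 exceeded STMN2 in 8 of 9, the exception being Cre replicate 2, where GAP43 had no count.

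With at least 3 counts in every library as the criterion, 4 of the 10 genes were on (STMN1, VIM, UCHL1 and NEFL), against 18.7% of all 35876 symbols. The other 6 reached 3 counts in some libraries only: NES and GAP43 in 8 of 9, NEFM in 5, INA in 3, STMN2 in 2 and NEFH in 1. NES and GAP43 missed only Cre replicate 2, where 3 counts would be 11.2 CPM. None of the 10 was below 3 counts in all libraries. The filter on low counts kept 6 genes for testing (NEFL, STMN1, NES, VIM, GAP43 and UCHL1) and left 4 untested in the fit reported here.

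RefSeq promoter windows (GRCh38.p14, the 250 bases before a listed start) were found for 6 of the 10 symbols and are shown for 3 genes, chosen because STMN1 differed between groups by the test, VIM did not, and NES had its highest levels in another group than STMN1. Only stretches outside annotated exons of protein-coding genes are printed, 5′ to 3′ on the gene's strand. Exons of other gene types were not removed. The letters of the motifs are in capitals, which for a match on the other strand are the reverse complement. Each motif was searched on both strands. The letters GGGCGG stand for the GC box, to which factors of the Sp family bind. The letters TATAAA stand for the TATA motif, and the CCAAT motif is named by its own letters.
STMN1, chr1:25906467-25906669, minus strand, at 1 of 3 listed starts: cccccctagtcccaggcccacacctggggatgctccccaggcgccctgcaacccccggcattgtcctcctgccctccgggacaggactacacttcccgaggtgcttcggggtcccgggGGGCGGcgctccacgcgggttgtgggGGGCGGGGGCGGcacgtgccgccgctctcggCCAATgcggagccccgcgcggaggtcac
NES, chr1:156677408-156677657, minus strand: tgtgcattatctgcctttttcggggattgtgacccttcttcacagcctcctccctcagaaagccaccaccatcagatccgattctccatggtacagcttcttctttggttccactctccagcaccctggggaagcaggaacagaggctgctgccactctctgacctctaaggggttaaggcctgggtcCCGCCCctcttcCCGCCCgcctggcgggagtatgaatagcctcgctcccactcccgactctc
VIM, chr10:17227991-17228240, plus strand: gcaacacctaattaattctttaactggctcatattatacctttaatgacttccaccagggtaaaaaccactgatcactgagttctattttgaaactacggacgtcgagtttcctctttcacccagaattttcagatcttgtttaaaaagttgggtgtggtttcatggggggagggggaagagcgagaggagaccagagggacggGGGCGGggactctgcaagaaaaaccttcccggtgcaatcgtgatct
The STMN1 stretch of 203 bases held 3 GC boxes, 2 of them adjoining, and 1 CCAAT motif, as did its full window of 250 bases. The NES window held 2 GC boxes and the VIM window 1, and neither held a CCAAT motif. None of the 3 held the TATA letters. The windows at the other 2 listed STMN1 starts, not printed, held 0 and 4 GC boxes and no CCAAT motif. The STMN1 letters therefore depend on the start that is taken. Of 35116 promoter windows of the same 250 bases, 42.6% held a GC box, 32% a CCAAT motif and 10.7% a TATA motif. The matches are a description of the letters only.

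Among the filament genes, VIM (chromosome 10, 17228259 to 17237593, GRCh38, as are all gene coordinates here) was high throughout and no difference between groups was detected. It stood at 196, 413 and 591 CPM in Cas9 replicates 1, 2 and 3. The Cre libraries had 173, 892 and 276 CPM, and the Flpo libraries 509.6, 263 and 363 CPM. All 3 groups overlapped, and the highest value was that of Cre replicate 2. Its log2 fold change in edgeR was 0.15 for Cre against Cas9 (95% interval −1.33 to 1.63, adjusted p = 0.93), −0.08 for Flpo against Cas9 (−1.55 to 1.39, adjusted p = 0.958) and 0.23 for Cre against Flpo (−1.25 to 1.71, adjusted p = 0.815). These intervals leave room for more than a doubling either way. Without Cre replicate 2 the last value was −0.73.

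NES (chromosome 1, 156668763 to 156677397) had its highest levels in the Cas9 group. Its level was 48.2, 66.6 and 57.4 CPM in Cas9 replicates 1 to 3. In the Cre libraries it was 46.3, 0 and 12.9 CPM, from 95, 0 and 15 counts. In the Flpo libraries it was 5.003, 15.6 and 7.34 CPM, from 29, 61 and 46 counts. With TMM scaling every Cas9 library lay above every Cre and every Flpo library, while Cre and Flpo overlapped. Without it Cas9 replicate 3, at 53.4 CPM, lay below Cre replicate 1, at 55.8 CPM, and the Flpo libraries were still all below Cas9. Neither difference passed the test: the log2 fold change was −2.63 with a standard error of 0.81 for Flpo against Cas9 (edgeR, unadjusted p = 0.0061, adjusted p = 0.109) and −1.37 with a standard error of 0.79 for Cre against Cas9 (adjusted p = 0.619). Over the 17 alternatives the first adjusted p ran from 1.83e-07 to 0.361, and DESeq2 gave 0.0138. Without Flpo replicate 2 edgeR gave −3.22 with an adjusted p of 0.0209.

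Of the neurofilament chains, NEFL was detected in every library and its partners barely so. NEFL (chromosome 8, 24950955 to 24957110) had 36, 30 and 62 counts in Cas9 replicates 1 to 3, 61, 7 and 63 counts in Cre, and 67, 33 and 101 counts in Flpo. As TMM-scaled CPM this was 29.9, 17.2 and 17.7 in Cas9, 29.7, 26.1 and 54.1 in Cre, and 11.6, 8.43 and 16.1 in Flpo. The Flpo libraries were the 3 lowest, below all of Cas9 and all of Cre, while Cas9 and Cre overlapped. For Cre against Flpo the log2 fold change was 1.62 with a standard error of 0.54 (95% interval 0.45 to 2.79), and the edgeR adjusted p of 0.0501 missed the threshold of 0.05. DESeq2 gave 1.61 with an adjusted p of 0.0174, and without TMM scaling edgeR gave 2.42 with an adjusted p of 0.0182. Over all 17 alternatives the adjusted p ran from 0.000246 to 0.802 and passed in 6.

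NEFM (chromosome 8, 24913012 to 24919098) had 26 counts in all 9 libraries, against 460 for NEFL, although their transcripts have lengths of 4020 and 4082 bases. Pooled over a group, NEFM was 1.41 CPM in Cas9 (Wilson 95% interval 0.74 to 2.67, 9 counts), 3.21 in Cre (1.69 to 6.09, 9 counts) and 0.359 in Flpo (0.182 to 0.709, 8 counts), without TMM scaling. These intervals cover counting error only. INA (chromosome 10, 103277163 to 103290351) had 6 counts in the Cas9 libraries, 16 in the Flpo libraries and none in the Cre libraries, where the pooled upper Wilson bound was 1.37 CPM. NEFH (chromosome 22, 29480230 to 29491390) had 3 counts in Cas9 replicate 3, 2 in Flpo replicate 3 and none in the other 7 libraries. None of these 3 genes passed the filter on low counts, so no test is given for them. By counting error alone and without TMM scaling, the pooled NEFM interval in Flpo lay below those in Cas9 and Cre. The libraries themselves overlapped: Cas9 replicate 3 had 1 count, 0.266 CPM, and Flpo replicate 1 had 5 counts, 0.566 CPM. Cre replicate 2 had none.

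The 2 genes that passed the test were STMN1 and UCHL1, each lower in Cre than in Flpo. STMN1 (chromosome 1, 25884181 to 25906991) stood at 136, 337 and 451 CPM in Cas9 replicates 1 to 3. Cre libraries had 273, 172 and 106 CPM, and Flpo libraries 1104.5, 361 and 1076.5 CPM. Flpo replicates 1 and 3 were the 2 highest libraries, and Flpo replicate 2 lay inside the Cas9 range and above all Cre libraries. The group means were 308 ± 159.6 in Cas9, 184 ± 83.9 in Cre and 847 ± 421 in Flpo (SD, n = 3 each). For Cre against Flpo STMN1 was 4.6-fold lower, a log2 fold change of −2.20 with a standard error of 0.69 (95% interval −3.68 to −0.72, edgeR adjusted p = 0.0403). Without TMM scaling Flpo replicate 2, at 283 CPM, lay below Cre replicate 1, at 329 CPM, and the difference was −1.40 with an edgeR adjusted p of 0.111.

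UCHL1 (chromosome 4, 41256413 to 41268455) showed the same order of groups. Its level was 31.6, 169.8 and 242 CPM in Cas9, 94.5, 63.5 and 39.5 CPM in Cre, and 584, 166 and 470.3 CPM in Flpo. All Cre libraries lay below all Flpo libraries, with or without TMM scaling, and Cas9 overlapped with both. The group means were 148 ± 107 in Cas9, 65.8 ± 27.6 in Cre and 407 ± 216 in Flpo (SD, n = 3 each). For Cre against Flpo UCHL1 was 6.15-fold lower, a log2 fold change of −2.62 with a standard error of 0.75 (95% interval −4.24 to −1.0, edgeR adjusted p = 0.0315). Without TMM scaling it was −1.81 with an edgeR adjusted p of 0.0676.

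The 2 calls were not kept in several other fits. When the log2 of the library total entered the fit as a covariate, the differences were −0.79 for STMN1 (edgeR adjusted p = 0.932) and −0.82 for UCHL1 (0.938), and 0 of all 11905 genes passed. Neither gene passed when Cas9 replicate 2, Cre replicate 2, Cre replicate 3, Flpo replicate 1 or Flpo replicate 3 was left out, with edgeR adjusted p from 0.0735 to 0.176 for STMN1 and from 0.0571 to 0.14 for UCHL1. The differences in these 5 fits were −1.92 to −2.20 for STMN1 and −2.23 to −2.62 for UCHL1. No gene at all passed without Cre replicate 2, Cre replicate 3 or Flpo replicate 1, so those losses are not particular to STMN1 and UCHL1. Without Flpo replicate 2 they were −2.56 (0.00692) and −2.98 (0.00509). STMN1 also lost its call with only the Cre and Flpo libraries in the fit (adjusted p = 0.0632).

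Against Cas9, neither gene passed in either direction. For Flpo against Cas9 the log2 fold change was 1.46 for STMN1 (standard error 0.67, edgeR adjusted p = 0.245) and 1.46 for UCHL1 (standard error 0.71, adjusted p = 0.276). For Cre against Cas9 it was −0.75 (standard error 0.66, adjusted p = 0.667) and −1.16 (standard error 0.72, adjusted p = 0.619).

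STMN2 (chromosome 8, 79610814 to 79666175), the neuronal stathmin, had 18 counts in all, against 17620 for STMN1. It reached 3 counts in Cre replicate 3 and Flpo replicate 3, with 4 counts each. Pooled over a group it was 0.625 CPM in Cas9 (Wilson 95% interval 0.243 to 1.61), 2.14 in Cre (0.98 to 4.66) and 0.359 in Flpo (0.182 to 0.709). Of the other stathmin genes, STMN3 had 0, 19 and 50 counts in the Cas9 replicates, 3, 0 and 0 in Cre and 12, 8 and 13 in Flpo, and STMN4 had 1 count in 9 libraries. STMN1 was thus the 1 stathmin gene with at least 3 counts in every library.

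GAP43 (chromosome 3, 115623324 to 115721490) was at 12.5, 16.6 and 9.71 CPM in Cas9, 15.1, 0 and 9.44 CPM in Cre, and 5.69, 6.90 and 4.31 CPM in Flpo. All Flpo libraries lay below all Cas9 libraries, and Cre overlapped with both. No comparison passed: the log2 fold change was −1.19 with a standard error of 0.70 for Flpo against Cas9 (edgeR adjusted p = 0.358), −0.41 with a standard error of 0.72 for Cre against Cas9 (adjusted p = 0.81) and 0.78 with a standard error of 0.72 for Cre against Flpo (adjusted p = 0.422).

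**Figure D2:**
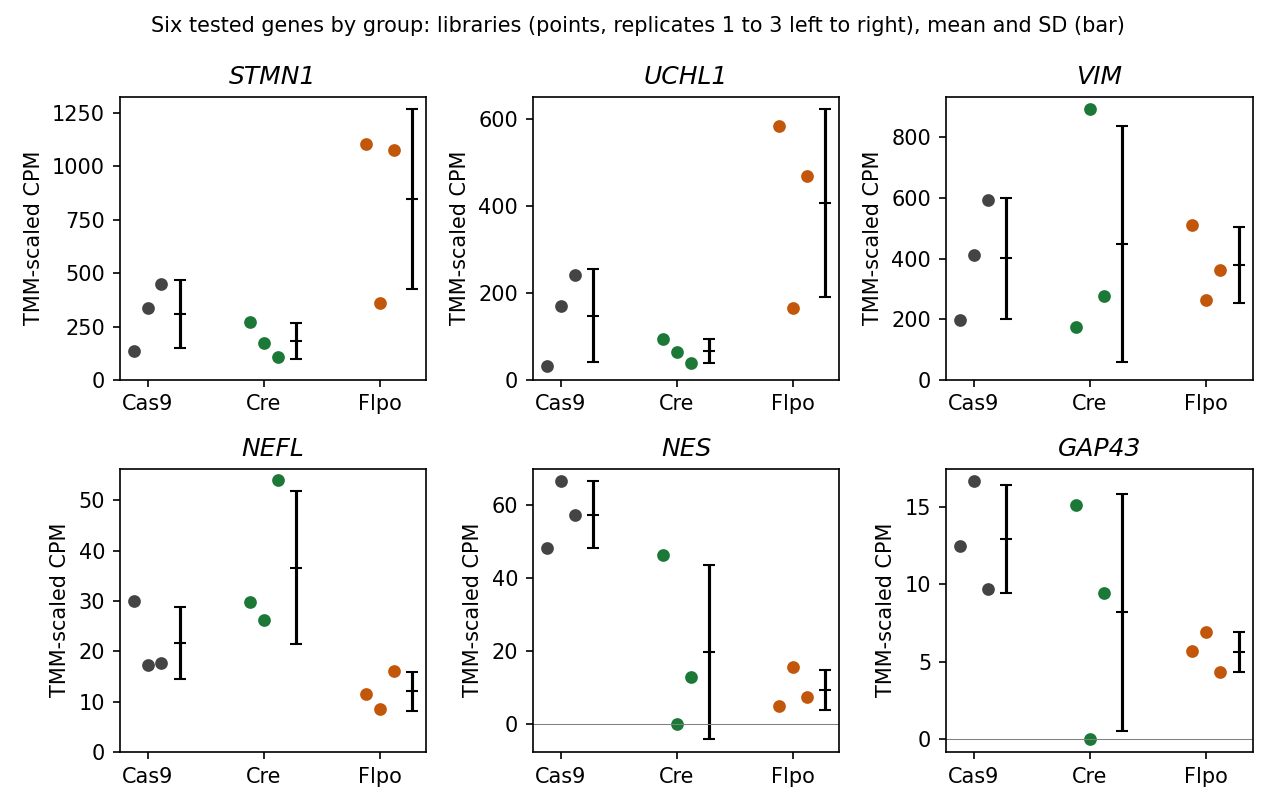
TMM-scaled CPM of the 6 tested genes in each library, by group, with the group mean and SD (n = 3) as a bar to the right. STMN1 and UCHL1 are highest in Flpo replicates 1 and 3, NES is highest in the Cas9 libraries, and the Flpo libraries are the lowest for NEFL.

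Over the 6 tested genes, 2 passed in Cre against Flpo, both lower in Cre. Of all tested genes 20.5% passed there, 14.3% as lower and 6.17% as higher in Cre, so that calls were common. At an unadjusted p under 0.05 there were 3 of the 6 (NEFL, STMN1 and UCHL1), against 39.8% of all tested genes. The same 3 had TMM-scaled levels that did not overlap between Cre and Flpo, against 43.2% of all tested genes: NEFL as higher in Cre (15.2% of all) and STMN1 and UCHL1 as lower (27.9%). That comparison is also the difference between the Cre and Flpo effects, since both are measured against the same Cas9 libraries.

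In Flpo against Cas9 edgeR called 0 of the 6, where 0.227% of all tested genes were called, 0.218% as higher and 0.0084% as lower in Flpo. At an unadjusted p under 0.05 there were 2 (STMN1 and NES), against 20% of all tested genes. DESeq2 called 1 of the 6, beside 7.41% of all genes it tested, and limma voom with sample quality weights 4, beside 61%. The voom weights were 0.33, 5.29 and 0.81 in Cas9 replicates 1 to 3 and 5.58, 0.195 and 1.05 in Flpo. In Cre they were 0.427, 0.858 and 1.69. The voom fits thus lean most on Cas9 replicate 2 and Flpo replicate 1. Levels did not overlap for NEFL, NES and GAP43, all lower in Flpo, against 25% of all tested genes (12.2% lower and 12.8% higher).

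In Cre against Cas9 edgeR called 0 of the 6, where 0% of all tested genes were called. None of the 6 had an unadjusted p under 0.05, against 7.38% of all tested genes. DESeq2 called 0, beside 0.0158% of all genes it tested, and voom with quality weights 4 of 6, beside 33.3%. Only NES had TMM-scaled levels that did not overlap, lower in Cre, against 9.83% of all tested genes (6.37% lower and 3.46% higher). Asked for any difference between groups, edgeR called 0 of the 6, where 9.51% of all tested genes were called. At an unadjusted p under 0.05 there were 4, against 30.4% of all tested genes. DESeq2 called 3 there, beside 20.1% of all genes it tested, and voom with quality weights 5 of 6, beside 79.6%.

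The median log2 fold change of the 6 was −0.58 in Cre against Cas9, −0.45 in Flpo against Cas9 and 0.51 in Cre against Flpo, beside −0.22, 0.05 and −0.34 for all tested genes. Scaling moved the baseline: without TMM the median of all tested genes in Cre against Flpo was 0.44, and 2039 of 2879 calls were higher in Cre in place of 735 of 2440. Relative to the median with TMM, the Cre against Flpo differences of STMN1 and UCHL1 were −1.86 and −2.28 and that of NEFL was 1.96.

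**Figure D3:**
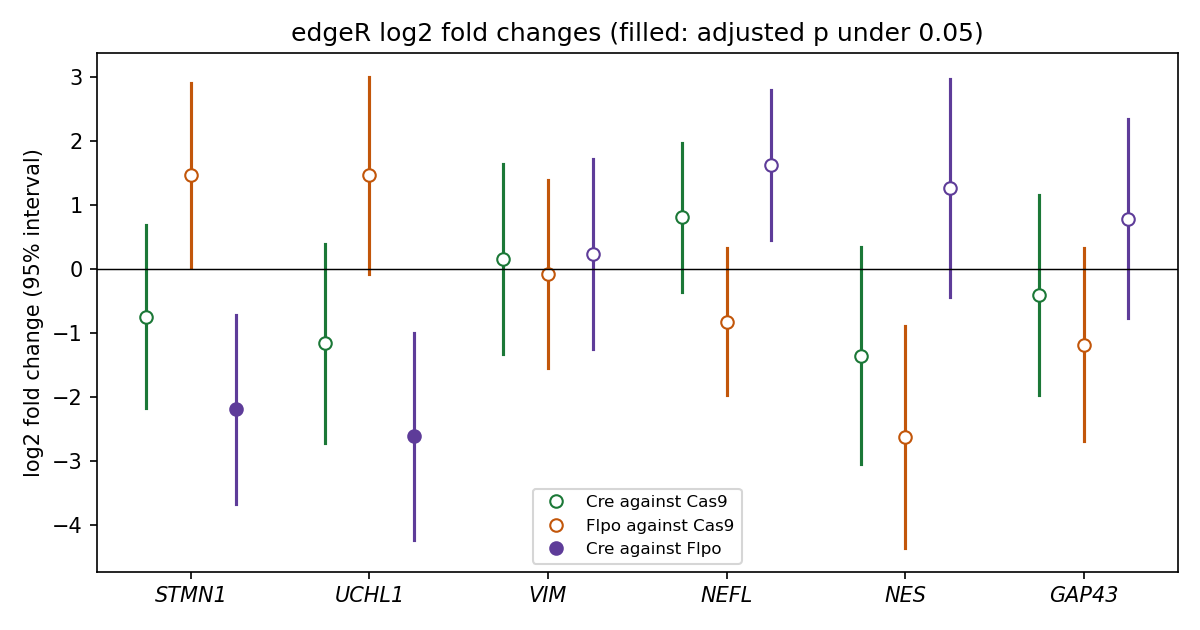
edgeR log2 fold changes with 95% intervals for the 6 tested genes in the 3 comparisons, filled where the adjusted p was under 0.05. The 2 filled points are STMN1 at −2.20 and UCHL1 at −2.62 in Cre against Flpo, and the VIM intervals span 0 in all 3.

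Ratios of 2 genes within a library do not depend on the scaling between libraries. The ratio of STMN1 to VIM counts was 0.695, 0.817 and 0.763 in Cas9, 1.57, 0.192 and 0.385 in Cre, and 2.17, 1.37 and 2.97 in Flpo. The Flpo ratios were above all Cas9 ratios, and Cre replicate 1 fell between Flpo replicates 2 and 1. The ratio of UCHL1 to VIM was 0.161, 0.411 and 0.408 in Cas9, 0.545, 0.0711 and 0.143 in Cre and 1.15, 0.631 and 1.30 in Flpo, where all Flpo ratios were above those of the other 6 libraries. The ratio of UCHL1 to STMN1 moved least, from 0.232 in Cas9 replicate 1 to 0.535 in Cas9 replicate 3, with all Cre and Flpo libraries between 0.346 and 0.529. These ratios were chosen after the values were seen and are given without a test.

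**Figure D4:**
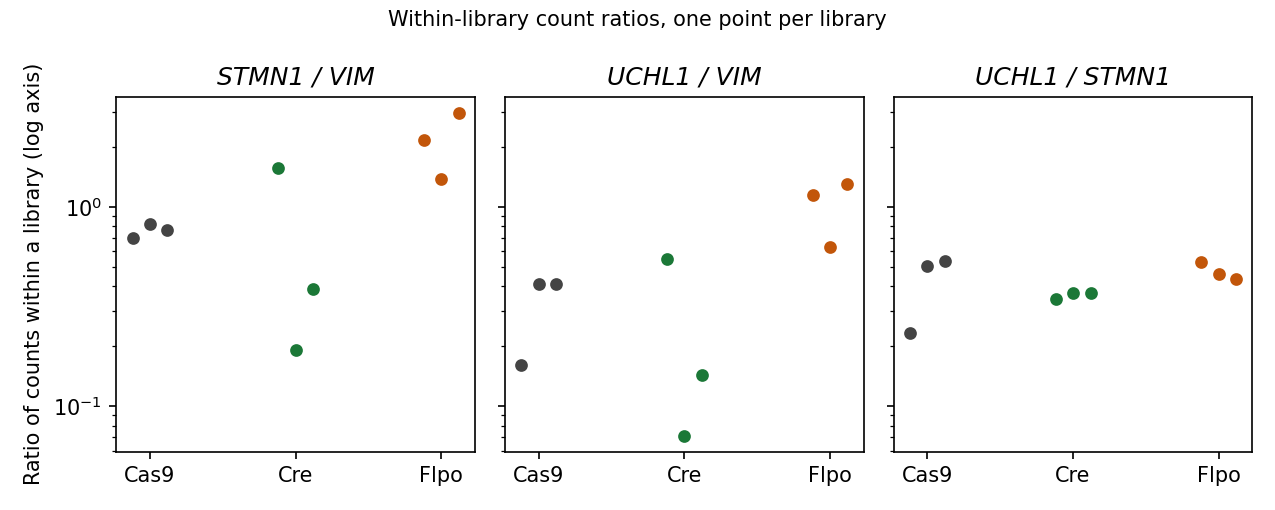
Within-library count ratios of STMN1 to VIM, UCHL1 to VIM and UCHL1 to STMN1 (log axis), 1 point per library. UCHL1 to VIM is highest in the 3 Flpo libraries, and UCHL1 to STMN1 stays between 0.232 and 0.535.

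The patterns over the 9 libraries were set beside those of 7697 other tested genes with a mean of at least 50 counts, as the root mean square difference of log2 CPM after centring each gene on its mean. The genes most like VIM were MT-ND6 (0.24), MT-ND4 (0.35) and MT-ND1 (0.36), which are mitochondrial genome transcripts, where the median over all genes was 1.26. The genes most like STMN1 were SYNGR2 (0.16), UQCRC1 (0.18) and KXD1 (0.20), with a median of 1.23. Those most like UCHL1 were SUB1 (0.20), GMPR2 (0.21) and RPS13 (0.25), with a median of 1.41. STMN1 and UCHL1 differed from each other by 0.36, rank 34 from UCHL1 and rank 95 from STMN1. VIM was 1.16 from STMN1 and 1.32 from UCHL1, near the median gene. These are descriptions over 9 libraries that also differ in depth.

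Of 12 other intermediate filament genes, 10 were tested, and in Cre against Flpo 4 keratins were lower and 1 gene, DES, was higher by edgeR's test, beside 20.5% of all tested genes called (14.3% lower and 6.17% higher). The median log2 fold change of the 10 was −1.62, beside −0.34 for all tested genes. The keratins KRT8 and KRT18, partners in simple epithelia, were lower in Cre by 3.36 and 4.43 on the log2 scale, that is 10.3-fold and 21.5-fold (standard errors 0.80 and 0.83, edgeR adjusted p = 0.0199 and 0.0167). KRT18 was at 46.5, 105 and 215 CPM in Cas9, 83.8, 56.0 and 21.4 CPM in Cre and 1575, 477 and 1421 CPM in Flpo. KRT10 and KRT19 were lower by 4.46 and 2.83 on the log2 scale (adjusted p = 0.0254 and 0.0383). In Cre replicates 1 to 3 KRT10 had 10, 0 and 0 counts and KRT19 had 52, 0 and 7. Cre values below the floor of 3 counts thus enter both differences, and their size is poorly measured. DES, the muscle filament desmin, was higher in Cre by 3.52 (standard error 0.93, adjusted p = 0.0247), and by 2.13 without Cre replicate 2. LMNA, which encodes the nuclear lamins A and C, was at 138 ± 28.5 CPM in Cas9, 151 ± 60.4 in Cre and 180 ± 110.3 in Flpo (SD, n = 3 each, adjusted p = 0.737 for Cre against Flpo). GFAP, the astrocyte filament, had 5 to 112 counts in every library. Without Cre replicate 2, a fit in which no gene at all passed, KRT8, KRT18, KRT19 and KRT10 differed by −3.03, −4.42, −2.45 and −4.24. DES, KRT10 and KRT19 changed sign with the log2 library total as a covariate.

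**Figure D5:**
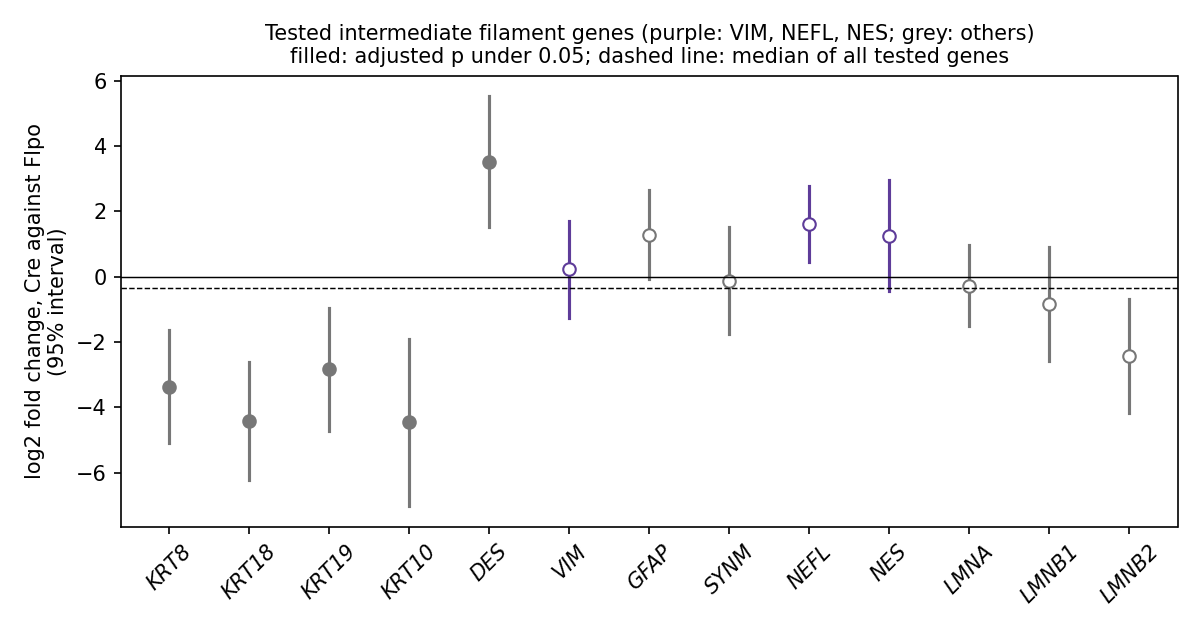
edgeR log2 fold changes of Cre against Flpo with 95% intervals for 13 tested intermediate filament genes, purple for VIM, NEFL and NES and grey for the others, filled where the adjusted p was under 0.05, with the median of all tested genes dashed. The 4 keratins lie below 0, DES lies above, and VIM, NEFL and NES are open points.

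Genes of the growth cone and axon cytoskeleton were mostly at low levels. Of 20, 6 were on, beside 18.7% of all symbols, and 12 were tested. In Cre against Flpo 1 was higher and 1 lower, that is 16.7%, near the 20.5% of all tested genes called. The median was 0.19 beside −0.34 for all tested genes. MARCKS, an actin-binding protein kinase C substrate, was higher in Cre by 1.5 (standard error 0.46, edgeR adjusted p = 0.0381), at 259 ± 68.2 CPM against 91.6 ± 8.13 (SD, n = 3 each). DPYSL2, a collapsin response mediator that binds tubulin, was lower in Cre by 2.64 on the log2 scale (standard error 0.82, adjusted p = 0.0397). It had only 22, 1 and 5 counts in Cre replicates 1 to 3. BASP1, a growth cone protein often named with GAP43 and MARCKS, had 3 to 382 counts and a log2 difference of −0.50 (adjusted p = 0.507).

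Among 16 markers of differentiated neurons, 3 had at least 3 counts in every library (RBFOX3, SYP and NSG1), beside 18.7% of all symbols. Of the 16, 2 were below 3 counts in all libraries (SYN1 and GAD2), and 6 were tested. None of the 6 passed in any comparison. Of all tested genes, edgeR called 20.5% in Cre against Flpo, 0.227% in Flpo against Cas9 and 0% in Cre against Cas9. At an unadjusted edgeR p under 0.05 there was 1 in Cre against Flpo, against 39.8% of all tested genes. There were none in Flpo against Cas9 (20% of all) and none in Cre against Cas9 (7.38%). RBFOX3, a splicing factor of mature neurons, was at 47.4, 18.4 and 15.1 CPM in Cas9, 36.1, 29.9 and 49.8 CPM in Cre and 3.11, 32.2 and 2.71 CPM in Flpo. ENO2, the neuronal enolase, was at 94.995 ± 23.4 CPM in Cas9, 76.2 ± 63.8 in Cre and 49.9 ± 29.6 in Flpo (SD, n = 3 each).

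Of 14 neural progenitor genes, 4 were on (SOX4, SOX11, PAX6 and MSI2), beside 18.7% of all symbols, and 11 were tested. In Cre against Flpo 2 were lower and 0 higher, near the 20.5% of all tested genes called, with a median of −0.66 beside −0.34 for all. MSI1, an RNA-binding protein of neural stem cells, was lower in Cre by 3.17 on the log2 scale (standard error 0.83, edgeR adjusted p = 0.0242). It had only 7, 1 and 2 counts in Cre replicates 1 to 3. HES6, a neurogenic HES family factor, had 1 count in the Cre libraries together and 254 in the Flpo libraries (adjusted p = 0.0291). SOX4 was the most abundant per kilobase, at 774 ± 325 CPM in Cas9, 606 ± 355 in Cre and 319 ± 121 in Flpo (SD, n = 3 each, adjusted p = 0.299 for Cre against Flpo).

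REST represses neuronal genes in non-neuronal cells through corepressors such as RCOR1, SIN3A, HDAC1 and HDAC2, KDM1A and EHMT2. REST was on in all 9 libraries, at 23.3, 48.2 and 38.3 CPM in Cas9, 26.3, 18.7 and 13.7 CPM in Cre and 41.2, 33.5 and 33.2 CPM in Flpo. These levels are TMM-scaled, and the log2 difference of −0.86 for Cre against Flpo did not pass (edgeR adjusted p = 0.217). Of these 12 genes 11 were tested. In Cre against Flpo the histone demethylase KDM1A was lower by 2.79 on the log2 scale (standard error 0.87, adjusted p = 0.041) and the histone methyltransferase EHMT2 was higher by 1.56 (standard error 0.51, adjusted p = 0.0482). KDM1A had only 47, 0 and 2 counts in Cre replicates 1 to 3. The 2 calls among the 11 genes stand beside 20.5% of all tested genes called. The median of the 11 was −0.30 beside −0.34 for all.

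Markers of other cell types were read in the same libraries, where 18.7% of all symbols were on. Of 12 adrenal medulla and neuroblast markers, 7 were below 3 counts in all libraries, with PHOX2A, DBH and MAB21L2 at 0. CHGB was the 1 gene of that list on in all libraries. Of 7 glial markers none was on, and MBP reached 3 counts in 8 of 9 libraries. GFAP, which was read with the filament genes and is not among these 7, was on in all 9. Hepatocyte markers were read because the extraction text speaks of livers: 1 of 9 was on (TF), FGB was at 0, and ALB had 5 counts, all in Flpo replicate 2. Of 8 epithelial markers 2 were on (CDH1 and CLDN4), and the list's summed level was 24.8 to 54.8 CPM in Cas9, 33.1 to 70.4 in Cre and 30.2 to 68.3 in Flpo. In that list 1 of 4 tested genes, ESRP2, passed in Cre against Flpo, where 20.5% of all tested genes did, lower in Cre by 3.57 on the log2 scale (edgeR adjusted p = 0.0293). ESRP2 had only 6, 0 and 1 counts in Cre replicates 1 to 3. CLDN4, CDH1 and CLDN7 lay the other way, higher in Cre by 1.61, 1.33 and 0.25, and did not pass. The median of the 4 was 0.79, beside −0.34 for all tested genes.

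Fibroblast markers moved in the same comparison as STMN1 and UCHL1. Of 8 such genes 5 were tested, and COL1A1, COL1A2 and COL3A1 were higher in Cre than in Flpo, by 3.19, 3.47 and 3.04 on the log2 scale (standard errors 0.83, 0.96 and 0.75, edgeR adjusted p = 0.0243, 0.0287 and 0.021), beside 6.17% of all tested genes called as higher. The summed level of the 8 was 265 to 901 CPM in Cas9, 553 to 6566 in Cre and 254 to 328 in Flpo. COL1A2 was at 286, 3927 and 822 CPM in Cre replicates 1 to 3, and THY1 and PDGFRB, surface markers of fibroblasts, had 5 and 17 counts over all libraries. Cre replicate 2 was highest for both COL1A2 and VIM, and without it COL1A1, COL1A2 and COL3A1 had differences of 1.70, 1.90 and 1.74 (edgeR adjusted p = 0.0831, 0.1 and 0.0672, in a fit where no gene passed). In Cre against Cas9 edgeR called 0 of the 5, and 5 of 5 had an unadjusted p under 0.05, beside 0% and 7.38% of all tested genes. The part of these markers in the results for the 10 genes was not tested.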

How the data were processed

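RNA-seq was run on 9 HEK293 libraries. Per the labels' protocols, TRIzol was used for RNA and a TruSeq RNA kit for library construction. The authors deposited 1 table of estimated counts per gene symbol, not normalized. The submitters' processing notes name Salmon 0.14.1 and hg38. The annotation, filters and use of strand are not given in the sources used here. NEFL, NEFM, NEFH, VIM and UCHL1 share exonic bases with an antisense gene in GENCODE 29, and whether reads of both strands were told apart is not known. STMN1 shares exonic bases with MIR3917 on the same strand. STMN1 had estimates that were not whole in 9 of 9 libraries and VIM in 8, and the pseudogenes named for STMN1 held 1 count.

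The 10 genes and all lists were chosen with earlier results of these data known. The design had been written for estimated counts, which were rounded. edgeR 4.0.16 in R 4.3.3 tested all 9 libraries together with TMM scaling and its default filter (minimum count 10, minimum total 15), which kept 11905 of 35876 symbols. Standard errors were derived from each F statistic and its log2 fold change, and 95% intervals use the test's total degrees of freedom. Lengths are those of the longest principal transcript in GENCODE 29, matched by symbol for 35378 symbols. All 10 genes are named, with, per other list, up to 3 past the threshold and the 3 highest per kilobase, from which a few are described. Other genes named (SYP, NSG1, SYN1, GAD2, SOX11, PAX6, KRT19, GFAP, REST, THY1, PDGFRB, ALB, FGB, PHOX2A, DBH and MAB21L2) were singled out after their values were seen. Replicate numbers were not used to pair the libraries in the main fit. Alternatives used DESeq2 1.42.0, limma 3.58.1 (voom with sample quality weights), other scaling, filters, covariates and fits without each library. The edgeR code was also run on simulated counts, for Flpo against Cas9 only and with the same spread for every gene. That run does not bear on the calls in Cre against Flpo.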

Additional observations from a re-analysis of the deposited data

Results flagged for a closer look

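STMN1 and UCHL1 were flagged because the Cre and Flpo effects, both against the same Cas9 libraries, differed by the test of that difference. Of all tested genes 20.5% passed that test, 14.3% as lower in Cre. The difference was −2.20 on the log2 scale for STMN1 (edgeR adjusted p = 0.0403) and −2.62 for UCHL1 (edgeR adjusted p = 0.0315). With TMM scaling all 3 Cre libraries lay below all 3 Flpo libraries for both genes, as for 27.9% of all tested genes, and without it STMN1 overlapped. Over the 17 alternatives the call was kept in 8 for STMN1 and in 9 for UCHL1. With the log2 library total as a covariate it was kept for neither gene. In the main fit neither gene passed against Cas9.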

How the results depend on the processing

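Counts of the 10 genes past an adjusted p of 0.05 moved with the processing, and the causes were not tested. In Cre against Cas9 the count was 0, and 4 with voom quality weights. In Flpo against Cas9 it was 0, against 1 with DESeq2, 1 without a filter and 4 with voom, and 0 to 1 when each library was left out in turn (1 without Flpo replicate 2). In Cre against Flpo it was 2, against 3 with DESeq2 size factors, 3 with DESeq2, 3 with voom, 1 without TMM, 1 with only the groups compared, 0 with the log2 total as a covariate, 0 with the replicate block, and 0 to 3 with a library left out. In the test among 3 groups it was 0, against 1 without TMM, 3 with DESeq2, 3 without a filter, 5 with voom, and 0 to 3 with a library left out (3 without Flpo replicate 2). The replicate block left 0 calls among the 10 genes in every test. Same-numbered libraries had deviations that correlated between −0.55 and 0.53. Libraries of different numbers were not compared, so these values do not decide whether the numbers pair the libraries.

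Over the 6 tested genes, direction and side of the threshold were kept in 94 of 102 alternative fits for Cre against Cas9, 90 of 102 for Flpo against Cas9 and 74 of 102 for Cre against Flpo. For a gene not called in the main fit, a kept side means not passing, and this holds for all 6 against Cas9. The calls of STMN1 and UCHL1 in Cre against Flpo were kept in 8 and 9 of 17 alternatives. The sign of VIM turned in Cre against Cas9 to −0.17 with voom, −0.63 with the covariate, −0.21 without Cas9 replicate 1 and −0.82 without Cre replicate 2. In Flpo against Cas9 it turned to 0.20 with voom, 0.12 with the replicate block, 0.45 with the covariate, 0.30 without Cas9 replicate 3 and 0.11 without Flpo replicate 2, with −0.46 to 0.30 over the fits that leave out a library. In Cre against Flpo it turned to −0.37 with voom, −0.09 with the block, −1.08 with the covariate and −0.73 without Cre replicate 2, with −0.73 to 0.58 over those fits. NES in Cre against Flpo turned to −0.13 without Cre replicate 1, in a range of −0.13 to 1.89. With the covariate, Cre against Flpo turned for DES (−0.30), KRT19 (1.17), KRT10 (0.79), DPYSL2 (0.34), KDM1A (0.51), COL1A1 (−0.64), COL1A2 (−0.84) and COL3A1 (−0.40).

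Among all genes, Cre against Flpo had 2440 calls, and 4103 with DESeq2, 8043 with voom, 1568 with the block, 0 with the covariate and 0 to 5559 with a library left out. Flpo against Cas9 had 27, and 12 without TMM, 1088 with DESeq2, 7268 with voom, 1169 without a filter, 0 with only the groups compared, 6 with the block, 0 with the covariate and 0 to 2685 with a library left out. Cre against Cas9 had 0, and 4 with DESeq2, 3960 with voom and 51 without a filter. The test among 3 groups had 1132, and 2950, 9475 and 3128 with these, 426 with the block, 0 with the covariate and 10 to 4194 with a library left out. Depth limits STMN2, NEFM, INA and NEFH, and any gene in Cre replicate 2.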

Other observations

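The summed total of the 3 Flpo libraries was 7.93 times that of the 3 Cre libraries, and the summed counts of the 10 genes did not follow it alike. The Flpo to Cre ratio of summed counts was 27.2 for UCHL1, 19.9 for STMN1 and 6.82 for VIM, but 2.07 for GAP43, 1.53 for NEFL and 1.24 for NES. RBFOX3, with 161 and 140 counts, had a ratio of 1.15, and COL1A2, with 2405 and 2597 counts, one of 0.926. KRT18, with 19899 and 212 counts, had a ratio of 93.9. COL1A2 had between 209 and 1052 counts in every library, and NEFL between 30 and 101 in 8 of 9. These ratios were computed after the values were seen and no explanation of them was tested.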
